A study of Homo sapiens with 18 samples.

Results

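The genes described here are 10 feedback inhibitors of MAP kinase signalling, namely the phosphatases DUSP1, DUSP4, DUSP5, DUSP6 and DUSP10, the Sprouty and Spred proteins SPRY1, SPRY2, SPRED1 and SPRED2, and the pseudokinase TRIB1. They were chosen by name, as the transcript clusters of the array that the platform annotation gives to 1 of these genes, and each of the 10 genes had 1 cluster, among 18417 gene symbols on an array of 33297 clusters. The choice was made with the R1881 and knockdown differences of these same arrays known, so the values of the 10 genes are given as a description, without tests.

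Expression was measured on 18 Affymetrix Human Gene arrays of total RNA from 2 human prostate cancer lines that express the androgen receptor, LNCaP (12 arrays, in 3 sets) and VCaP (6 arrays, in 1 set). The study asked how the androgen response changed when CTBP1-AS, a long noncoding RNA antisense to CTBP1, or PSF, an RNA-binding nuclear protein that SFPQ encodes, was knocked down with siRNA. In LNCaP, set 1 held siCTBP1-AS and siControl with 10 nM R1881, a synthetic androgen, or vehicle, set 2 held siCTBP1-AS #2 and siControl (siControl#2 in its description) with 1 nM R1881 or vehicle, and set 3 held siPSF and siControl with 10 nM R1881 or vehicle. The VCaP set held siCTBP1-AS #2, siPSF and siControl, each with 1 nM R1881 or vehicle. Vehicle was ethanol, and each siRNA and treatment had 1 array per set. All groups had been transfected 48 h before hormone was added and kept 3 days in charcoal-treated serum, at 2.5% for LNCaP and 5% for VCaP, and siControl groups carried a control siRNA and were not untransfected cells. In LNCaP, siCTBP1-AS and siCTBP1-AS #2 lie in different sets with different R1881 concentrations, and siPSF lies in a set of its own. VCaP is 1 set, so line and set cannot be told apart.

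MAP kinase cascades carry signals from growth factor receptors and from stress to the nucleus through the kinases ERK, JNK and p38. ERK activity switches on genes whose products shut the cascade down again. Dual specificity phosphatases remove the phosphates that activate the kinases, Sprouty and Spred proteins act upstream between receptors, Ras and Raf, and TRIB1 is a scaffold that binds MEK and hands transcription factors to a ubiquitin ligase. Transcripts of these genes turn over fast and are widely read as a trace of recent pathway activity, although other signals, steroid hormones among them, control some of them too.

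Values are log2 signals, the array median of which lay between 5.73 and 6.85 depending on the set, so signals of different sets are not set against each other. The checks of the groups showed KLK3, the androgen receptor target that encodes PSA, higher with R1881 in 9 of 9 pairs of arrays. CTBP1 kept no common direction under siCTBP1-AS in both lines. It was higher than under siControl in 3 of 6 comparisons and lower in 3, with a mean of −0.09 ± 0.33 (SD). These CTBP1 values do not show whether siCTBP1-AS lowered its target. SFPQ was lower with siPSF in both treatments, at 9.89 against 10.79 under siControl with R1881 and 10.47 against 11.15 with vehicle in LNCaP, and at 9.61 against 11.16 with R1881 and 9.70 against 11.02 with vehicle in VCaP. The RNA of CTBP1-AS itself was not analysed here. Of 5 prostate line markers measured, KLK2, KLK3 and HOXB13 were above the array median on all 18 arrays, ACP3 on 11 of 12 LNCaP and 6 of 6 VCaP arrays, and ERG on 6 of 6 VCaP and 0 of 12 LNCaP arrays. No tested marker of basal epithelium, fibroblasts, leukocytes or endothelium passed in limma in the comparisons fitted. That test compares groups and cannot show whether such cells were present. For siCTBP1-AS in both lines, the 2 leukocyte markers tested had an unadjusted p under 0.05 in limma, with a median log2 change of 0.50. Of all genes tested, 18.6% were under 0.05 there. The arrays measured whole cultures, in which fewer cells expressing a gene and less RNA per cell cannot be told apart.

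**Figure D1:**
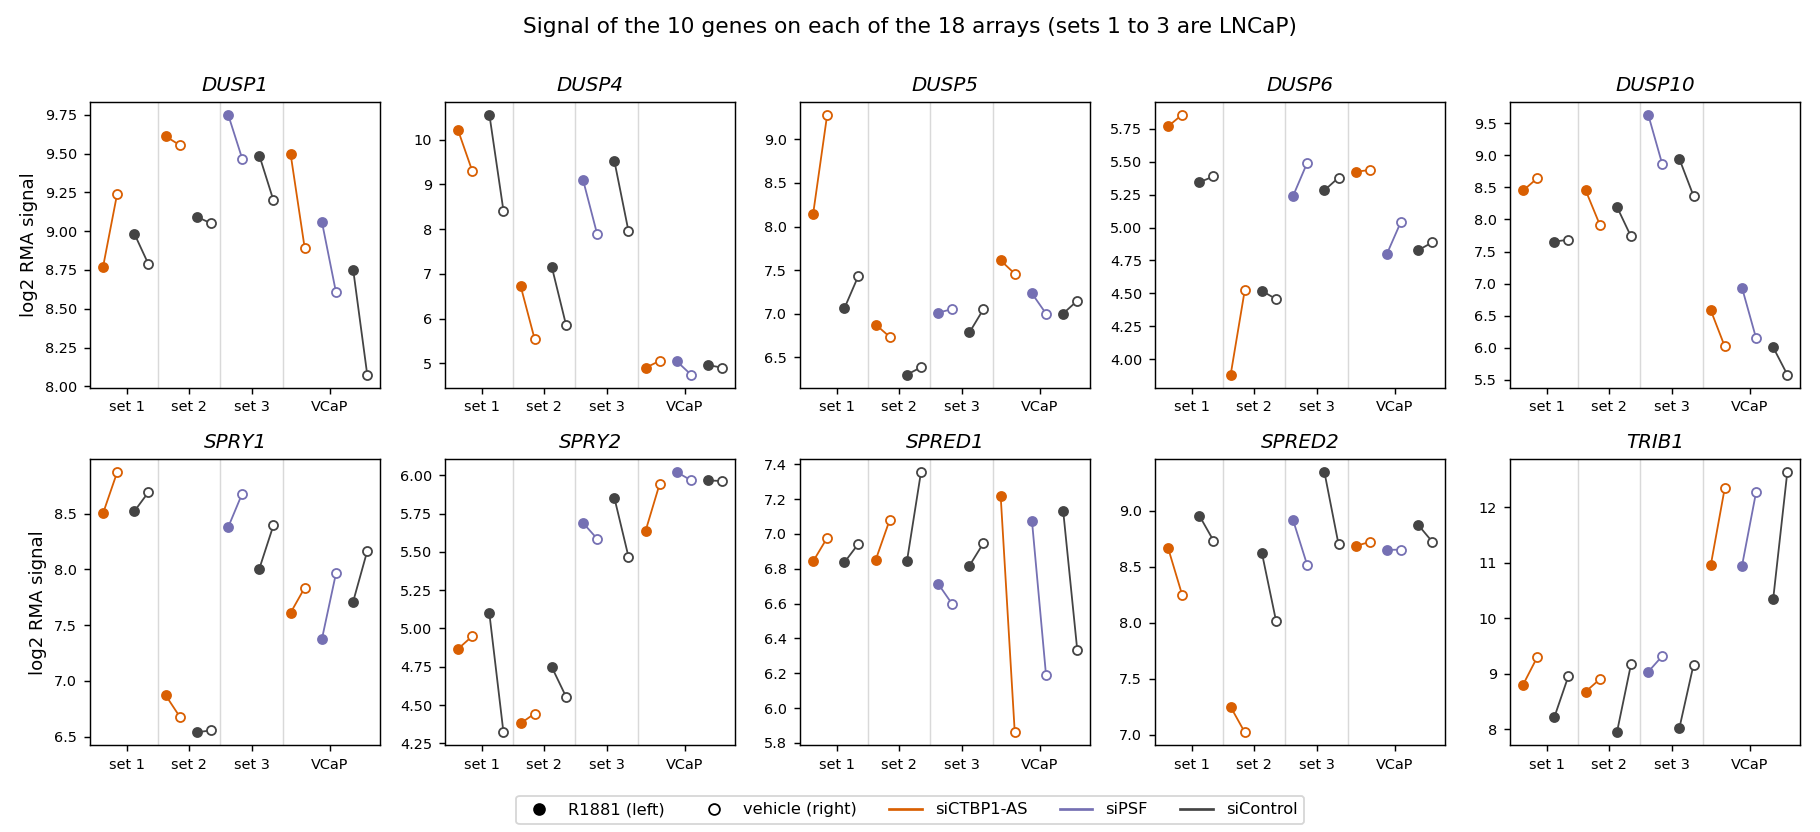
Log2 signal of each of the 10 genes on every array, with the 3 LNCaP sets and VCaP along the horizontal axis and 1 point per array. Filled points are R1881 and open points vehicle, a line joins the pair of 1 siRNA, and orange stands for siCTBP1-AS in set 1 and siCTBP1-AS #2 in set 2 and VCaP. Signals of DUSP4 with R1881 lie above vehicle in the LNCaP sets and stay between 4.75 and 5.06 in VCaP, and TRIB1 in VCaP spans 10.36 to 12.64.

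The lines differed in where several of the genes stood among all transcript clusters on the same array. Probes differ in brightness, so a rank is compared only for the same gene between the lines. DUSP4 ranked low in VCaP, above 29.57% to 33.61% of clusters, and above 47.38% to 92.69% in LNCaP. TRIB1 ranked near the top in VCaP, above 91.57% to 98.51% of clusters, and above 65.43% to 85.85% in LNCaP. DUSP10 lay above 41.67% to 58.63% of clusters in VCaP and above 63.8% to 82.94% in LNCaP. SPRY2 lay above 41.55% to 47.44% in VCaP and 16.7% to 37.45% in LNCaP. For these 4 genes the ranks of the 6 VCaP and 12 LNCaP arrays did not overlap. In VCaP, 2 of the 10 genes (SPRY2 and TRIB1) ranked above every LNCaP array, beside 12.6% of all genes, and 2 (DUSP4 and DUSP10) ranked below, beside 11.1%, and nothing is read from these counts. The ranks of the other 6 genes overlapped between the lines. DUSP6 was dim throughout, above 30.22% to 38.76% of clusters in VCaP and 24.82% to 37.12% in LNCaP. Its mean signal of 5.09 lay just under the filter that left out the 25% of genes with the lowest mean, and that of SPRY2, 5.30, lay just above it over all arrays, so that small differences of these genes carry less weight.

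Under siControl in LNCaP, R1881 went with more DUSP4 and less TRIB1, and with smaller differences in the other 8 genes. DUSP4, a nuclear phosphatase for ERK and JNK, had log2 signals of 10.56, 7.15 and 9.52 with R1881 in sets 1, 2 and 3, against 8.41, 5.87 and 7.96 with vehicle. It was higher with R1881 in each set, although the set levels are so far apart that the groups overlap when sets are pooled. The mean difference was 1.66 ± 0.44 (SD, n = 3), which is 3.17-fold, and the largest, in set 1, was 4.43-fold.

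TRIB1 had signals of 8.22, 7.95 and 8.03 with R1881 in sets 1, 2 and 3, against 8.96, 9.17 and 9.16 with vehicle, all under siControl. TRIB1 was lower with R1881 in each set. The mean difference was −1.03 ± 0.26 (SD, n = 3), or 2.05-fold lower. SPRED2, which holds back Raf activation, had signals of 8.96, 8.62 and 9.35 with R1881 and 8.73, 8.02 and 8.70 with vehicle in sets 1, 2 and 3. It was higher with R1881 in each set, by 0.49 ± 0.23 on the log2 scale (SD, n = 3).

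The other Sprouty and Spred genes differed less in LNCaP under siControl. SPRY2, a brake on receptor tyrosine kinase signals to Ras, was higher by 0.45 ± 0.30 and SPRED1, which brings neurofibromin to Ras at the membrane, differed by −0.25 ± 0.23 (SD, n = 3 each). SPRY1, a relative of SPRY2 with the same place in the pathway, differed by −0.19 ± 0.19. For SPRED1 and SPRY1 the SD was close to the difference. Among the phosphatases, DUSP10, which acts on JNK and p38, differed by 0.33 ± 0.32, DUSP1, a nuclear phosphatase of the same kinases and of ERK, by 0.18 ± 0.12, and DUSP5, a nuclear phosphatase of ERK, by −0.24 ± 0.15 (SD, n = 3 each). DUSP6, the cytoplasmic ERK phosphatase, differed by −0.03 ± 0.08, and the sign of its differences in sets 1 and 2 turned when arrays were quantile normalized within a set.

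Counted by direction, 4 of the 10 genes were higher with R1881 in all 3 LNCaP siControl pairs (DUSP1, DUSP4, SPRY2 and SPRED2), beside 17.2% of all genes. Another 4 were lower in all 3 pairs (DUSP5, SPRY1, SPRED1 and TRIB1), beside 20.9% of all genes, and of these SPRY1 in set 2, at −0.02, turned sign under quantile normalization. The genes were picked with these differences known, so nothing is read from the counts. Their direction was split, and their median difference in the fit, −0.01 over the 8 that passed its filter on low values, stood beside −0.02 for all genes tested.

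**Figure D2:**
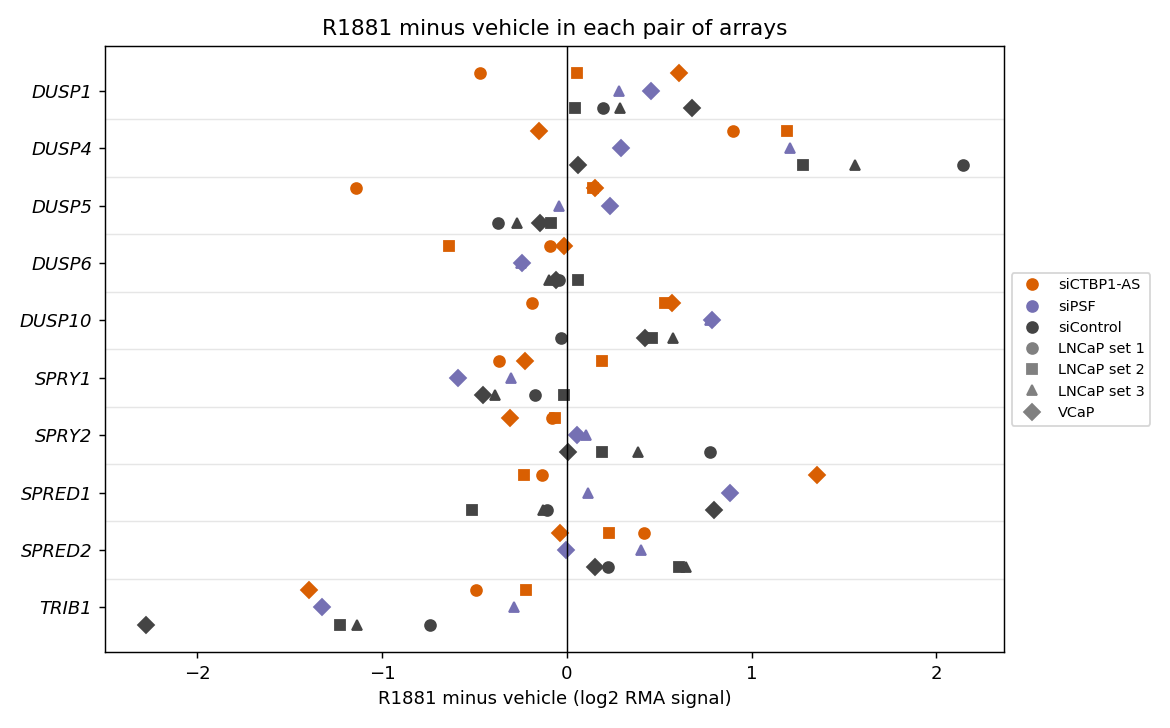
Log2 difference of R1881 minus vehicle for each of the 10 genes in the 9 pairs of arrays, 1 point per pair, with the siRNA as colour (siCTBP1-AS covers #2) and the set as symbol. TRIB1 lies below 0 in all 9 pairs, DUSP4 lies between 0.90 and 2.15 in the LNCaP pairs, and SPRED1 lies between 0.80 and 1.35 in the VCaP pairs.

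With the knockdown arrays added, DUSP4 and SPRED2 were higher with R1881 in all 6 LNCaP pairs, beside 8.31% of all genes, and TRIB1 was lower in all 6, beside 8.83%. DUSP4 differed by 0.90 under siCTBP1-AS in set 1, by 1.19 under siCTBP1-AS #2 in set 2 and by 1.21 under siPSF in set 3. These values are below those of siControl in the same set, 2.15, 1.28 and 1.56.

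VCaP gave another pattern. TRIB1 had signals of 10.95, 10.95 and 10.36 with R1881 under siCTBP1-AS #2, siPSF and siControl, against 12.35, 12.27 and 12.64 with vehicle. TRIB1 was lower with R1881 in all 3 pairs, beside 25.2% of all genes. Its difference of −2.28 under siControl, 4.86-fold lower, was the largest of any of the 10 genes in any R1881 pair. SPRED1 had signals of 7.22, 7.08 and 7.13 with R1881 under siCTBP1-AS #2, siPSF and siControl, against 5.86, 6.19 and 6.33 with vehicle. SPRED1 was higher in all 3 pairs, beside 27.0% of all genes. The mean difference was 1.01 ± 0.30 (SD over the 3 siRNAs of this set, not over replicates). Under siControl alone it was 0.80, from 1 pair, in the direction opposite to that in LNCaP siControl cells.

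DUSP1 and DUSP10 were also higher with R1881 in the 3 VCaP pairs, by 0.58 ± 0.11 and 0.59 ± 0.18. Each SD in VCaP is taken over the 3 siRNAs of the set, not over replicates. SPRY1 was lower in the same pairs, by a mean of −0.42 ± 0.18. DUSP4 showed no such shift in VCaP, with 4.91, 5.05 and 4.96 with R1881 under siCTBP1-AS #2, siPSF and siControl, against 5.06, 4.75 and 4.91 with vehicle, and SPRED2 differed by 0.04 ± 0.10. For DUSP4 the groups overlapped and the mean difference, 0.07 ± 0.22, was smaller than its SD. The DUSP4 signals in VCaP were dim, above 29.57% to 33.61% of clusters. These values therefore do not show whether DUSP4 responds to R1881 in VCaP. In VCaP 3 of the 10 genes (DUSP1, DUSP10 and SPRED1) were higher in all 3 pairs, beside 27.0% of all genes, and 3 (DUSP6, SPRY1 and TRIB1) were lower, beside 25.2%. Of the DUSP6 values, the one under siCTBP1-AS #2 was only −0.01.

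Over both lines, TRIB1 alone among the 10 genes kept 1 direction in all 9 R1881 pairs, lower by a mean of −1.01 ± 0.65 (SD, n = 9), beside 5.18% of all genes lower in all 9. None was higher in all 9 pairs, beside 5.78% of all genes. The 9 pairs came from 4 sets and do not stand for as many independent experiments.

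Across the knockdowns, DUSP10 was higher and SPRED2 lower than under siControl in all 10 comparisons of arrays as deposited. DUSP1 was higher in all 5 comparisons with vehicle, beside 6.93% of all genes, but with R1881 it was lower in LNCaP set 1. DUSP10 under siCTBP1-AS in LNCaP set 1 had signals of 8.45 with R1881 and 8.64 with vehicle, against 7.65 and 7.68 under siControl. Under siCTBP1-AS #2 in set 2 it had 8.45 with R1881 and 7.92 with vehicle, against 8.20 and 7.73 under siControl. Under siPSF in set 3 it had 9.63 with R1881 and 8.86 with vehicle, against 8.94 and 8.37 under siControl. Each knockdown array stood above its siControl array, with the smallest gap in set 2.

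In VCaP, DUSP10 had signals of 6.59 with R1881 and 6.02 with vehicle under siCTBP1-AS #2, and of 6.94 and 6.15 under siPSF, against 6.01 and 5.58 under siControl. Over both lines the difference was 0.54 ± 0.30 for siCTBP1-AS (SD, n = 6 array pairs) and 0.67 ± 0.19 for siPSF (SD, n = 4 array pairs), and the mean over all 10 was 0.59 ± 0.26, or 1.51-fold. DUSP10 was the only one of the 10 genes higher in all 10 comparisons, beside 0.977% of all genes. In VCaP both knockdowns were set against the same siControl arrays, so their differences share those values.

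SPRED2 in LNCaP had signals of 8.67 with R1881 and 8.25 with vehicle under siCTBP1-AS in set 1, against 8.96 and 8.73 under siControl. In set 2 it had 7.25 with R1881 and 7.02 with vehicle under siCTBP1-AS #2, against 8.62 and 8.02 under siControl. The gap was widest in set 2, at −1.38 with R1881, 2.60-fold lower, and with vehicle it was the next widest. Under siPSF in set 3 SPRED2 differed by −0.43 with R1881 and −0.19 with vehicle. In VCaP its differences lay between −0.22 and −0.00, and the one nearest 0, under siCTBP1-AS #2 with vehicle, became 0.13 when arrays were quantile normalized within the set. SPRED2 was thus lower in 10 of 10 comparisons only in the values as deposited, beside 1.55% of all genes.

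**Figure D3:**
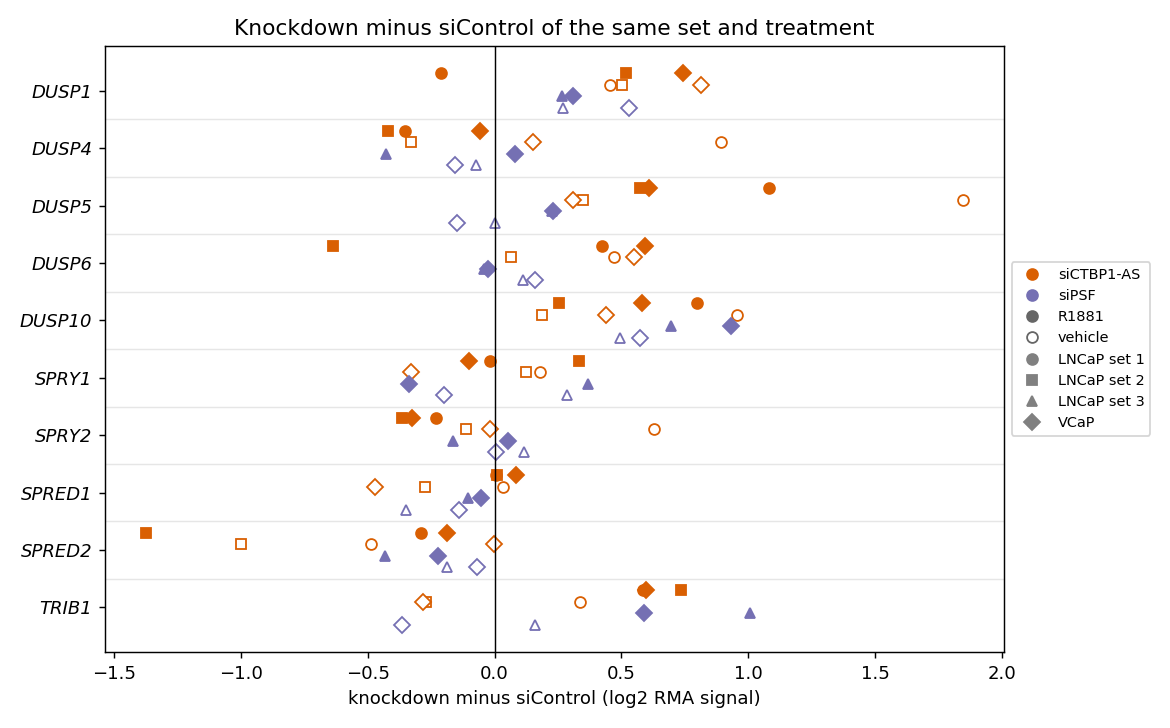
Log2 difference of knockdown minus siControl for each of the 10 genes in the 10 comparisons, 1 point per comparison, with the siRNA as colour (siCTBP1-AS covers #2), the set as symbol, and filled points for R1881 and open points for vehicle. DUSP10 lies between 0.19 and 0.96, SPRED2 between −1.38 and −0.00, and DUSP5 reaches 1.85 under siCTBP1-AS in LNCaP set 1.

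DUSP1 had signals of 9.61 with R1881 and 9.55 with vehicle under siCTBP1-AS #2 in LNCaP set 2, against 9.09 and 9.05 under siControl. In VCaP it had 9.50 with R1881 and 8.89 with vehicle under siCTBP1-AS #2, and 9.06 and 8.61 under siPSF, against 8.75 and 8.08 under siControl. Set 1 was split, with DUSP1 higher under siCTBP1-AS by 0.45 with vehicle and lower, at −0.21, with R1881. The siPSF difference was 0.34 ± 0.13 over both lines (SD, n = 4 array pairs), with 4 of 4 higher. Across the 4 siPSF comparisons 2 of the 10 genes (DUSP1 and DUSP10) were higher in all, beside 10.3% of all genes, and 2 (SPRED1 and SPRED2) were lower in all, beside 12.5%.

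DUSP5 was higher under siCTBP1-AS in all 6 comparisons, by far the most in LNCaP set 1. There it had signals of 8.15 with R1881 and 9.29 with vehicle under siCTBP1-AS, against 7.06 and 7.44 under siControl, and the vehicle difference of 1.85 was 3.60-fold. In set 2 it had 6.88 with R1881 and 6.73 with vehicle under siCTBP1-AS #2, against 6.30 and 6.38 under siControl. In VCaP it had 7.61 with R1881 and 7.46 with vehicle under siCTBP1-AS #2, against 7.00 and 7.15 under siControl. The mean over the 6 comparisons was 0.80 ± 0.58 (SD), a spread that reflects the gap between set 1 and the rest. Under siPSF, DUSP5 differed by 0.08 ± 0.18 over 4 array pairs, less than the SD. Across the 6 siCTBP1-AS comparisons 2 of the 10 genes (DUSP5 and DUSP10) were higher in all, beside 3.83% of all genes. SPRED2 was lower in all 6 as deposited, with the VCaP vehicle value turned by quantile normalization as above, beside 5.01%.

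The remaining genes kept no common direction across all 10 knockdown comparisons. DUSP4 was higher by 0.89 under siCTBP1-AS with vehicle in set 1 and lay between −0.43 and 0.15 in the other 9 comparisons. DUSP6 was higher under siCTBP1-AS by 0.42 to 0.47 in set 1 and by 0.55 to 0.59 in VCaP, but differed by −0.64 with R1881 in set 2. SPRED1 lay between −0.47 and 0.09, and was lower in all 4 siPSF comparisons, beside 12.5% of all genes. SPRY2 lay between −0.37 and 0.63. SPRY1 under siPSF was higher in LNCaP set 3, by 0.37 with R1881 and 0.28 with vehicle, and lower in VCaP, at −0.34 with R1881 and −0.20 with vehicle.

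The promoters of DUSP1, DUSP10 and SPRED2 are shown because these genes had the same sign in at least 9 of the 10 knockdown comparisons as deposited. The share of all genes that meet this cut was not counted, so nothing is read from it. Each is the RefSeq window of 300 bases on GRCh38.p14, from 250 bases before to 50 after the transcript start, in the direction of the gene. The DUSP1 window is chr5:172771146-172771445 on the minus strand, the DUSP10 window (the first of 2 in RefSeq) is chr1:221742040-221742339 on the minus strand, and the SPRED2 window (the first of 2) is chr2:65432550-65432849 on the minus strand. Capitals mark the letters TGACGT, the core of the cAMP response element, on either strand.
DUSP1: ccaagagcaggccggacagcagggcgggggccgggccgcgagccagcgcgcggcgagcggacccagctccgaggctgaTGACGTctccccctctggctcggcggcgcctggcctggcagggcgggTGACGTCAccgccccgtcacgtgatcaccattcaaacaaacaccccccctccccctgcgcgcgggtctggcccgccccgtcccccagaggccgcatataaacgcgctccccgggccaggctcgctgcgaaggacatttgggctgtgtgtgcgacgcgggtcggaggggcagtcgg
DUSP10: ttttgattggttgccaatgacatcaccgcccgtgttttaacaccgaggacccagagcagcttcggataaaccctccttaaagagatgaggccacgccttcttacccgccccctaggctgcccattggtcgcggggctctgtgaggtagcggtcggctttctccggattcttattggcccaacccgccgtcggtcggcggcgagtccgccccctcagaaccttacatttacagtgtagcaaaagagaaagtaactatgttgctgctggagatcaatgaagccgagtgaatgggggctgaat
SPRED2: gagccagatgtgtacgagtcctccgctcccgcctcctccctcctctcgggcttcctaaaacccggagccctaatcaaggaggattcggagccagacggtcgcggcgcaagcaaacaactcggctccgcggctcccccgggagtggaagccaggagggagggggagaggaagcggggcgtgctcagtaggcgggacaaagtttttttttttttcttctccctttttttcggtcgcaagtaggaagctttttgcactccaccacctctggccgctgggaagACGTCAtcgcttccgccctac
The DUSP1 window held the core from position −172 relative to the start and a full palindromic TGACGTCA from position −125, which holds the core on both strands. The SPRED2 window held the core once, on the minus strand relative to the gene, 30 bases after the start, and the DUSP10 window held none.

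Promoter windows were at hand for 7 of the 10 genes, 12 windows in all, and 5 motifs were searched on both strands. TGACGTCA was in 1 of the 12 windows (DUSP1) and in 1.85% of all 35116 RefSeq windows, and TGACGT, which lies within it, in 2 (DUSP1 and SPRED2) and in 7.98%. The AP-1 letters TGANTCA were in 1 window (the second of SPRED2) and in 7.71% of all windows, and the ETS letters CCGGAA in 2 (SPRY1 and SPRY2) and in 17.2%. The androgen receptor half-site AGAACA was in 2 windows, both of SPRY2, and in 14.8%. These are matches of letters and do not show that a factor binds.

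The R1881 difference of TRIB1 was smaller in size under every knockdown than under siControl of the same set. With R1881, TRIB1 had signals of 8.81 under siCTBP1-AS in LNCaP set 1, 8.68 under siCTBP1-AS #2 in set 2 and 9.04 under siPSF in set 3, against 8.22, 7.95 and 8.03 under siControl. With vehicle it had 9.30, 8.90 and 9.32 under the same knockdowns, against 8.96, 9.17 and 9.16 under siControl. The gap between knockdown and siControl was therefore wider with R1881 in all 3 LNCaP sets. In VCaP the signals with R1881 were 10.95 under either knockdown, against 10.36 under siControl, and those with vehicle were 12.35 and 12.27, against 12.64.

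TRIB1 was higher under knockdown in 5 of 5 comparisons with R1881, by 0.70 ± 0.18 (SD), and in 2 of 5 with vehicle, where the mean was −0.08 ± 0.31 (SD). With R1881, 3 of the 10 genes were higher under all 5 knockdowns (DUSP5, DUSP10 and TRIB1), beside 5.17% of all genes, and SPRED2 was lower in all 5, beside 5.52%. With vehicle, DUSP1, DUSP6 and DUSP10 were higher in all 5, beside 6.93% of all genes, and SPRED2 was lower in all 5, beside 7.31%, but DUSP6 in set 2 and SPRED2 in VCaP each turned sign in 1 of these comparisons under quantile normalization. The R1881 difference under knockdown minus that under siControl was 0.25 in set 1, 1.00 in set 2, 0.85 in set 3, 0.88 for siCTBP1-AS #2 in VCaP and 0.95 for siPSF in VCaP. In set 1 that value stood above 81.44% of all genes, and in the other 4 comparisons above 98.91% to 99.6% of genes. The siControl difference of TRIB1, above only 0.23% (VCaP) to 1.69% (set 1) of genes, is subtracted in it. An extreme siControl difference therefore raises the rank by itself, and nothing is read from these ranks. TRIB1 was the only one of the 10 genes with a positive value in all 5, beside 8.19% of all genes, and none was negative in all 5, beside 5.49%. The 2 VCaP values share the siControl pair, and a single siControl array that stood apart would enter both.

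DUSP4, which had the largest mean R1881 difference of the 10 genes in LNCaP siControl cells, gave −1.25, −0.09 and −0.35 by the same measure in sets 1, 2 and 3, and −0.21 and 0.24 in VCaP. The set 1 value arose from both arrays, since DUSP4 under siCTBP1-AS was higher than siControl with vehicle and lower with R1881. For DUSP10 the 5 values had a mean of 0.12 ± 0.19, less than their SD. No gene of the 13812 tested passed in limma for a change of the R1881 response with either knockdown, at an adjusted p of 0.05, and 0 were called under each alternative setting. An unadjusted p under 0.05 in limma was found for 482 genes (3.49% of those tested) with siCTBP1-AS and 268 (1.94%) with siPSF. Both shares lie under the 5% that such a cut gives when nothing differs, so nothing is read from these counts.

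**Figure D4:**
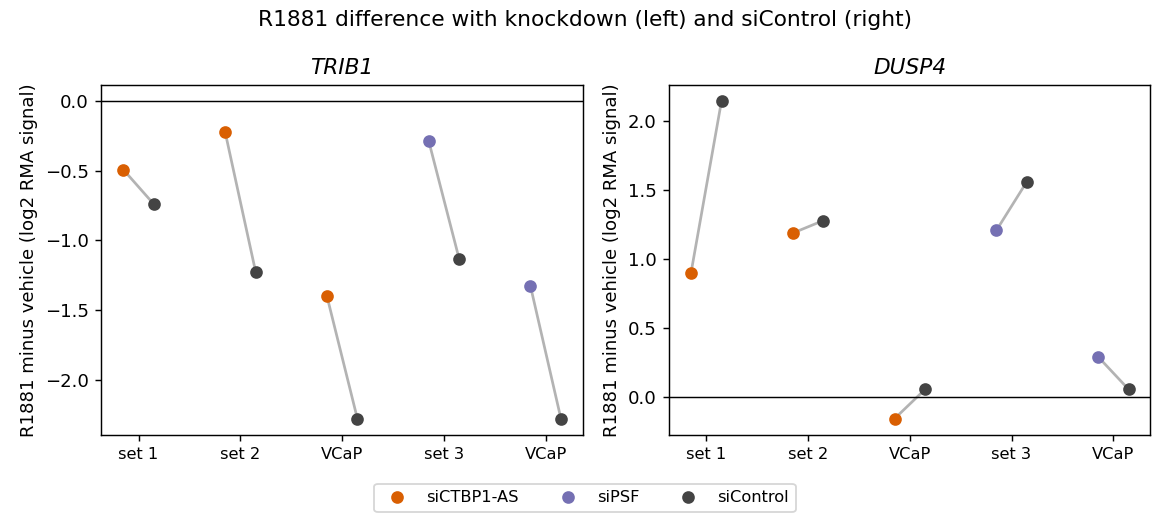
R1881 minus vehicle log2 difference of TRIB1 and DUSP4 under knockdown and under siControl of the same set, joined by lines. For TRIB1 all 5 knockdown values lie nearer 0 than the siControl value, and for DUSP4 the knockdown value is the lower in 4 of 5 comparisons.

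The wider pathway was followed through 5 lists of genes, chosen with earlier results of these arrays in view. With R1881 in LNCaP siControl cells, 35 of 13812 genes (0.253%) passed in limma without a block for the set, and 734 (5.31%) passed with the replicate number as a block. Without the block the count was 20 with set 1 left out, 2 without set 2 and 0 without set 3, where 212 genes had an unadjusted p under 0.05. Of 13 tested among 15 other feedback genes, 1 rose and 0 fell without the block, and 2 rose and 0 fell with it. ERRFI1, an inhibitor of the EGF receptor, rose 7.94-fold, a log2 change of 2.99 with an SE of 0.45 (limma, adjusted p = 0.00794), and was higher in 3 of 3 sets, but the call was lost without set 2 or without set 3. LRIG1, which lowers ErbB receptor levels, rose with the block by 1.84 (SE 0.22, adjusted p = 0.0073 in limma) and was higher in 3 of 3 sets.

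Among 13 tested of 19 growth factor receptors and ligands, 1 rose and 0 fell without the block, and 2 rose and 1 fell with it. IGF1R, the insulin-like growth factor receptor, rose by 2.59 (SE 0.46, adjusted p = 0.0213 in limma), or 6.02-fold, in 3 of 3 sets, and lost the call when any 1 set was left out without the block. With the block EGFR rose by 0.51 (adjusted p = 0.0448) and FGFR2, a fibroblast growth factor receptor, fell by 0.51 (adjusted p = 0.0406), both in limma and in 3 of 3 sets. Of the 12 tested ERK cascade genes 0 passed without the block in limma, with 0 at an unadjusted p under 0.05, and PEA15, which holds ERK in the cytoplasm, rose with it by 0.68 (SE 0.10, adjusted p = 0.0166). The 14 tested JNK and p38 kinases had 0 calls with or without the block in limma, with 7 at an unadjusted p under 0.05 with it, where 19.9% of all genes tested were under 0.05. The 16 tested genes that ERK induces also had 0 calls in limma, with 3 at an unadjusted p under 0.05 with the block, beside the same 19.9%. No set was left out in the fit with the block. How far its calls of LRIG1, EGFR, FGFR2 and PEA15 depend on a single set was therefore not checked. The median difference of the 5 lists lay between −0.16 and 0.03, beside −0.02 for all genes tested.

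Under knockdown the lists gave few calls. The siCTBP1-AS fits took siCTBP1-AS and siCTBP1-AS #2 as the same knockdown. For siCTBP1-AS in LNCaP, 128 genes (0.927%) passed in limma (1684 without set 1) and 0 were in the 5 lists, where 18 of 68 genes tested (26.5%) had an unadjusted p under 0.05, beside 18.1% of all genes tested. In both lines that list share was 26 of 70 (37.1%) for siCTBP1-AS, beside 18.6% of all genes tested. For siPSF it was 11 of 70 (15.7%), beside 13.4%. The lists were chosen with earlier results in view, so nothing is read from these shares. For siCTBP1-AS in both lines, 78 genes (0.565%) passed (2 without set 1, 7 without set 2 and 128 without VCaP), among them DUSP3, a phosphatase of ERK and JNK that rose by 0.39 (SE 0.08, adjusted p = 0.0498 in limma), and LRIG1, which fell by 0.78 (SE 0.13, adjusted p = 0.0354), each in 6 of 6 comparisons. For siPSF in both lines, 200 genes (1.45%) passed (1 without VCaP), among them JUN, a subunit of AP-1, which rose by 0.81 (SE 0.18, adjusted p = 0.0461 in limma), and EGFR, the EGF receptor, which fell by 1.23 (SE 0.11, adjusted p = 0.000222), each in 4 of 4 comparisons. DUSP3, LRIG1 and JUN lost the call when any 1 set with the knockdown was left out. DUSP3 also lost it with no filter on low signals (adjusted p = 0.0576 in limma) and with a variance trend (adjusted p = 0.0517). JUN also lost it with no filter (adjusted p = 0.0527 in limma), with quantile normalization (adjusted p = 0.0519) and with only set 3 and VCaP (adjusted p = 0.0583), while the EGFR call was lost only without VCaP among the alternatives run.

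The 10 genes did not vary as a block. Over the 18 arrays, each gene centred on its set mean, the 45 pairs among them had Pearson r between −0.59 and 0.74 with a median of −0.02, and 22 pairs were above 0. The highest were SPRY1 with TRIB1 (0.74), DUSP4 with SPRY2 (0.71) and DUSP1 with DUSP10 (0.68). The lowest were SPRED1 with TRIB1 (−0.59) and DUSP5 with SPRED2 (−0.56). Arrays of a set share siControl and treatment, so these values only describe the 18 arrays.

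**Figure D5:**
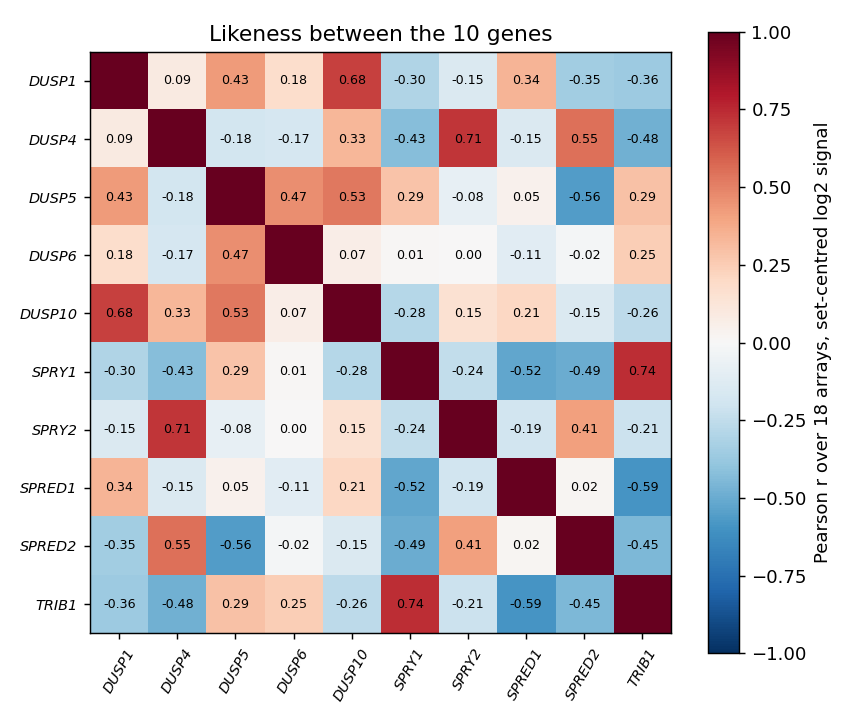
Pearson r between each pair of the 10 genes over 18 arrays after centring each gene on its set mean, as a colour from −1 to 1. The values spread from −0.59 to 0.74, with no block of high r across all 10 genes.

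The genes whose signals were most like each member were picked from 13812 genes by the same measure, a search so wide that a high r says little by itself. DUSP4 was most like ADAMTS1 (r = 0.96), TARP (0.95) and PLPP1 (0.94). TRIB1 was most like KDM4D (0.95), SYTL2 (0.94) and DAPK2 (0.93), SPRY1 most like IGSF9B (0.97), and SPRED1 most like LIPT1 (0.95). SPRED2 was most like SEC24B (0.94), TBC1D25 (0.93) and RAB5A (0.92). DUSP10 was most like WHAMM (0.91), DUSP5 most like DIO3 (0.94), DUSP1 most like SCN2B (0.86), DUSP6 most like CD300C (0.87) and SPRY2 most like HILPDA (0.82).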

How the data were processed

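Total RNA of 18 samples was hybridised to Affymetrix Human Gene arrays, 1 array per sample. The submitters' processing notes name Affymetrix Expression Console 1.1.1 and RMA, and the table the authors deposited holds the resulting log2 signal of each transcript cluster. How arrays were grouped for normalization, how long R1881 acted and what the mark #2 stands for are not given in the sources used here. Sets were read from the array names in the labels. The 10 genes and all gene lists were chosen with earlier results of these data known.

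For the 769 genes with more than 1 cluster, the brightest on average was taken. Differences of the 10 genes were taken within a set, as R1881 minus vehicle or knockdown minus siControl, as means with SD over array pairs, and were not tested. Other genes were tested with limma 3.58.1 in R 4.3.3 (lmFit, eBayes, Benjamini-Hochberg adjusted p under 0.05) after leaving out the 25% of genes with the lowest mean, which left 13812. The R1881 fit used the 3 LNCaP siControl pairs, and the knockdown fits had the set as a block. The fits were tested on simulated data. For the R1881 fit the simulated arrays held no differences between sets, so that test does not cover the real spread between sets. No separate cultures are stated, so the p-values speak only of the spread among these arrays, part of which may be technical. In the R1881 fit without a block for the set, that spread includes differences between sets, R1881 concentration among them. In the knockdown fits it includes differences of the knockdown effect between sets or lines. The number of arrays limits the precision.

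The replicate numbers of LNCaP siControl samples follow the sets as read from the array names, and the labels state no pairing. R1881 and vehicle arrays of the same number deviated together, with correlations of 0.79, 0.84 and 0.71, and those of different numbers correlated at −0.63 to −0.13. Each gene was centred on the mean of its group, so positive values at the same number push the others below 0. Values with the replicate block are therefore given beside the R1881 counts without it. Of 116 list genes 100 were measured, and the others are not analysed here. The text names, per list and comparison, at most 4 genes that passed, and for likeness the genes with the highest r (at most 3 per member). Promoter sequences came from RefSeq on GRCh38.p14, without DUSP5, and none is printed for DUSP4 and TRIB1. Alternatives were quantile normalization within sets, other filters and variance priors, the mean of clusters, and leaving out sets.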

Additional observations from a re-analysis of the deposited data

Results flagged for a closer look

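SPRED1 was marked because its R1881 difference under siControl had opposite signs in the lines. The value was 0.80 in the 1 VCaP pair and the mean was −0.25 over the 3 LNCaP pairs, every one of which was below 0. The difference between the lines was not tested, and VCaP has 1 siControl pair.

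SPRY1 was marked because siPSF went with opposite signs in the lines. The mean difference from siControl was −0.27 over the 2 VCaP comparisons and 0.33 over the 2 LNCaP comparisons. This difference was not tested either, and the comparisons of a line share 1 set.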

How the results depend on the processing

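The 190 member differences moved by at most 0.16 when arrays were quantile normalized within sets, and 13 turned sign, all of them of size 0.07 or less as deposited, among them SPRED2 under siCTBP1-AS #2 with vehicle in VCaP. None of the 10 genes had several clusters, so no alternative cluster could be tried. For R1881 in LNCaP siControl cells, 35 genes passed, 734 with the replicate block and 108 with a variance trend, and 0 to 20 when 1 set was left out. The count of 0 came without replicate 3, in limma, with 212 genes at an unadjusted p under 0.05. ERRFI1 lost its call without replicate 2 or replicate 3, and IGF1R without any 1 replicate. For siCTBP1-AS in LNCaP, 128 genes passed, and 145 to 1684 when 1 siCTBP1-AS set was left out. In both lines 78 passed, 46 with no filter on low signals, and 2 to 128 when 1 set was left out. With quantile normalization 62 passed, 39 higher and 23 lower, against 31 and 47 in the values as deposited. For siPSF, 200 passed, 54 with only set 3 and VCaP, and 1 to 146 when 1 set was left out, the lowest without VCaP. The causes were not tested. The changes of the R1881 response had 0 calls under every setting. Each knockdown, line and treatment combination rests on 1 array per set, so differences the size of the gaps between siControl arrays cannot be resolved.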
